A study of Mus musculus with 2 samples.

Results

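The genes described here encode the subunits of RNA polymerase II (Pol II), of the Mediator complex and of the Integrator complex. They were taken as the protein-coding genes of the GENCODE M21 mouse annotation whose symbol starts with Polr2, Med or Ints followed by a subunit letter or number. This gave 58 of the 22015 nuclear protein-coding genes, 13 for Pol II, 30 for Mediator and 15 for Integrator, in an annotation of 55536 genes in all. The 58 include the paralogs Med12l, Med13l and Ints6l. The material was the chromatin fraction of primary macrophages grown from the bone marrow of C57BL/6J mice (bone marrow-derived macrophages). Its RNA was sequenced after ribosomal RNA had been depleted. The only group was 0 minutes of stimulation with lipid A at 100 ng/ml, which is an unstimulated baseline, in 2 libraries that the labels call biological replicates. Both carry the same donor entry, and sex and age were not collected. Replicate 1 started from 250 ng of RNA and replicate 2 from 500 ng.

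With 1 group there was no contrast between conditions and no test of one, so levels, transcript make-up and the differences between the replicates are reported. An SD is over 2 replicates and may be technical. The gene tables held 10970767 expected counts (estimated reads) for replicate 1 and 14207280 for replicate 2. The 58 genes took 28677 and 39141 of these, or 0.262% and 0.276% of the counts on annotated genes. Levels are given as TPM, which corrects the counts for transcript length and for the size of the library. In the gene table all 8 macrophage marker genes had at least 1 TPM in both replicates (median 63.7 ± 12.4 TPM), as did 0 of 21 markers of T, B, neutrophil, epithelial, endothelial, stromal and erythroid cells. Of the 21 markers, 4 did in the second transcript table: Cd3d with 8.34 and 10.8 TPM, Pecam1 with 4.88 and 6.64 TPM, Cd8a with 2.43 and 3.24 TPM and Col1a1 with 1.02 and 1.74 TPM. In such bulk RNA, fewer cells of a type and less RNA per cell cannot be told apart.

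Pol II is the enzyme that transcribes protein-coding genes and many non-coding ones. Mediator passes signals from transcription factors bound at enhancers to Pol II at promoters, through a tail that meets activators, a head and a middle that meet the polymerase, and a kinase module that comes and goes. Integrator binds Pol II soon after it starts, cuts the young transcript with an endonuclease and removes phosphates from the polymerase with an attached phosphatase, and it also forms the ends of small nuclear RNAs. Macrophages answer lipid A, the part of bacterial lipopolysaccharide that Toll-like receptor 4 senses, with rapid transcription, for which these complexes are the general machinery. Chromatin-bound RNA is rich in transcripts that are still being made or spliced, so an intron in it need not remain in the finished mRNA.

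Several of these genes had much of their RNA on transcripts annotated as retaining an intron, and some of these introns are shown here. They come from those retained-intron transcripts that hold a whole annotated intron between coding exons, starting in each complex from the transcript with the most counts. Of each transcript the shortest such intron is shown. Med15-209, Ints7-204, Ints6-204 and Ints6-206 had more counts than the transcripts shown for their complex or gene, but hold no such intron. Capitals mark intron bases and lower case the coding exon on each side, read 5′ to 3′ along the transcript from the GENCODE M21 transcript sequences (mm10). Coordinates here and below are of that build. Introns of up to 120 bases are shown whole, and of longer ones the first and last 30 bases.

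Polr2e-203, intron of 72 bases, chr10:80036843-80036914, minus strand: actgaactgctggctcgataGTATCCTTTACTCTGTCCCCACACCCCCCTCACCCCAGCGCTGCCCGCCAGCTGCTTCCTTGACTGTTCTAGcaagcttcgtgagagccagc
Med12-208, intron of 75 bases, chrX:101294013-101294087, plus strand: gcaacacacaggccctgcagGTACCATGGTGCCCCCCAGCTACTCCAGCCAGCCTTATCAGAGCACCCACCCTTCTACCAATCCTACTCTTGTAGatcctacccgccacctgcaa
Med15-215, start of an intron of 2264 bases, chr16:17683189-17685452, minus strand: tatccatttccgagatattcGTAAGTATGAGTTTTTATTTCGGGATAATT
Med15-215, end of the same intron: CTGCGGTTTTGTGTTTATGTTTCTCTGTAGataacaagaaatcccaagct
Med20-203, start of an intron of 3822 bases, chr17:47619063-47622884, plus strand: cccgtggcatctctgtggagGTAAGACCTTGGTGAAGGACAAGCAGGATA
Med20-203, end of the same intron: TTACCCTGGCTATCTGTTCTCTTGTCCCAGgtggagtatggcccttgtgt
Ints2-207, start of an intron of 1364 bases, chr11:86243039-86244402, minus strand: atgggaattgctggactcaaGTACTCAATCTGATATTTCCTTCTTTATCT
Ints2-207, end of the same intron: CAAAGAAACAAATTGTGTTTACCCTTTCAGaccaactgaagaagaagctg
Ints12-202, start of an intron of 1497 bases, chr3:133096913-133098409, plus strand: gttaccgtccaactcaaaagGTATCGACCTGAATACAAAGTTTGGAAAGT
Ints12-202, end of the same intron: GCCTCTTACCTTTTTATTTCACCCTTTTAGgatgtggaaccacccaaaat

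All of these introns start with GT and end with AG, the usual letters of a splice site, as did all 47 introns that the annotation's retained-intron transcripts of 21 of the 58 genes hold whole, with at least 30 exon bases on each side. These 47 introns had a median length of 254 bases, against 1109 bases for the other 816 introns of the protein-coding transcripts of the 58 genes. By complex the median was 94 bases in 10 retained Pol II introns, against 524 bases in the other Pol II introns. Most of those 10 lay in the short genes Polr2e and Polr2i, of 3.847 and 1.443 kb. Retained here is by annotation alone: Polr2i-206 had 1.43 and 0 counts, and Polr2i-205 had 0 and 3. The median was 969 bases in 21 retained Mediator introns, against 1164 bases in the others, and 596.5 bases in 16 retained Integrator introns, against 1276.5 bases in the others. The counts given below for a transcript cover all of it, and reads over the intron alone are not in the tables.

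Nearly all of the genes were detected, at levels that were moderate for this cell and differed widely within each complex. At least 1 TPM in both replicates was found for 55 of the 58 genes, against 46.7% of all nuclear protein-coding genes. The 3 others were Polr2h with 0.88 and 1.54 TPM, Med30 with 0.88 and 1.27 TPM, and Med12l with 0.50 and 0.72 TPM in replicates 1 and 2. At least 10 TPM in both replicates was found for 24 of the 58, against 23.6% of all protein-coding genes and 50.5% of the detected ones. Those 24 were 2 of the 13 Pol II genes, 12 of the 30 Mediator genes and 10 of the 15 Integrator genes.

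The median level was 8.25 ± 0.410 TPM over the 58 genes (SD of the replicates' medians, n = 2), beside 11.1 ± 0.332 TPM over the 10284 detected protein-coding genes and 0.72 ± 0.0495 TPM over all 22015. It was 5.44 ± 0.672 TPM for Pol II, 6.73 ± 1.34 TPM for Mediator and 16.6 ± 0.636 TPM for Integrator. In both replicates the Integrator median, 17.0 and 16.1 TPM, was above that of Mediator, 7.85 and 5.95 TPM, and of Pol II, 5.38 and 6.33 TPM. The Mediator and Pol II medians changed places between the replicates. Summed over their genes, the levels came to 110.0 ± 18.8 TPM for Pol II, 511 ± 47.9 TPM for Mediator and 312 ± 17.6 TPM for Integrator, and 6 of the 58 genes were among the top 10% of nuclear protein-coding genes by mean TPM.

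**Figure D1:**
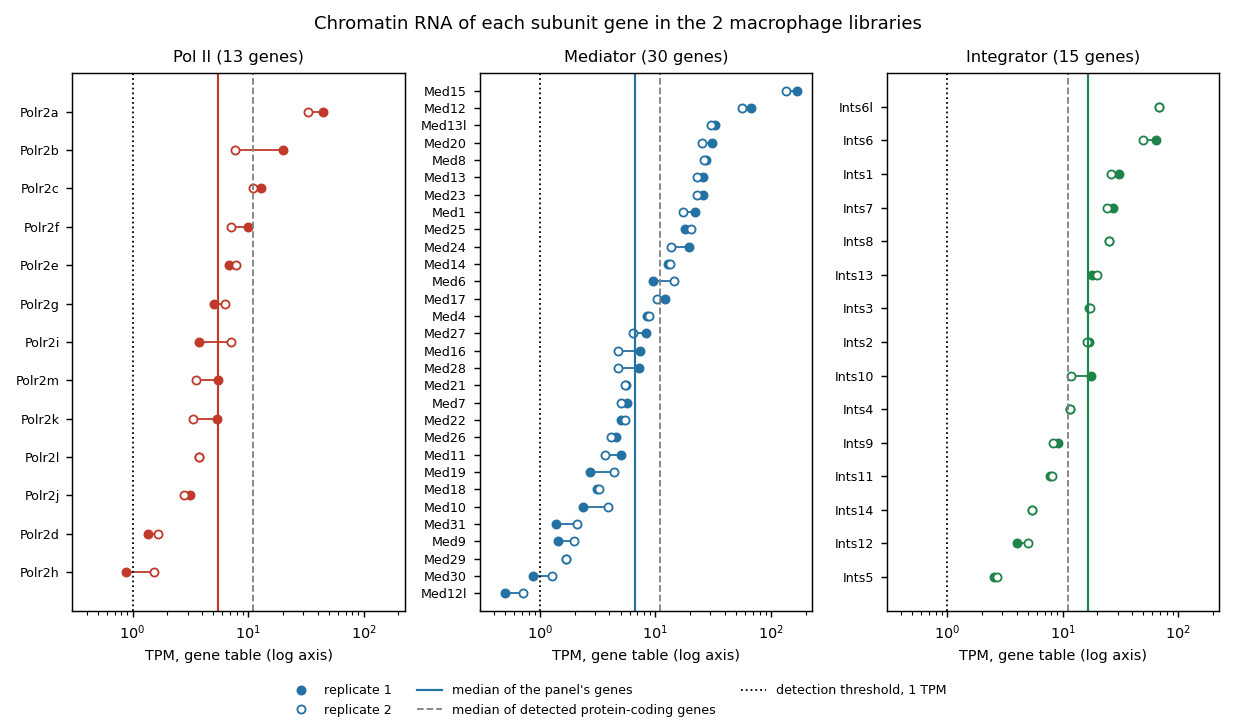
TPM of each gene in the gene table (log axis), with replicate 1 filled and replicate 2 open, ordered by mean within Pol II (13 genes), Mediator (30) and Integrator (15). Solid lines mark the medians of each panel, 5.44, 6.73 and 16.6 TPM, the dashed line the median of detected protein-coding genes, 11.1 TPM, and the dotted line 1 TPM. Med15 stands above all other genes, at 168 and 135 TPM.

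Within Pol II Polr2a stood highest in both replicates, and Polr2h and Polr2d had the lowest means. Polr2a (chr11:69733997-69758637, minus strand), the largest subunit, carries the C-terminal repeat domain that kinases phosphorylate, and had 44.9 and 32.9 TPM in replicates 1 and 2. Polr2b, the other large catalytic subunit, had 19.9 and 7.74 TPM. Polr2c, which starts the assembly of the enzyme with Polr2j, had 12.9 and 11.1 TPM, and Polr2j had 3.16 and 2.76 TPM. From the highest to the lowest mean the range was 32.1-fold, although the protein subunits belong to the same enzyme.

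The 5 subunits shared with RNA polymerases I and III had a median of 4.35 ± 1.13 TPM. Polr2f was the highest of them with 10.04 and 7.15 TPM, and Polr2e followed with 6.84 and 7.80 TPM. Polr2k and Polr2l lay between 3.32 and 5.38 TPM, and Polr2h was lowest, on 5 and 11 expected counts. Of the stalk pair, which sits where the RNA leaves the enzyme, Polr2g had 5.03 and 6.33 TPM and Polr2d had 1.37 and 1.65 TPM. Polr2i, a lobe subunit with a part in proofreading, had 3.74 and 7.14 TPM on only 10 and 19 counts. Polr2m, whose protein Gdown1 holds Pol II in a state that needs Mediator, had 5.45 and 3.51 TPM.

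Polr2b differed between the replicates in TPM more than in counts. Its expected counts were 219 and 282 in replicates 1 and 2, a log2 ratio of -0.14 after scaling with a 95% counting interval of -0.40 to 0.12, while its TPM in replicate 2 was well below that in replicate 1. The effective length used for the gene was 1061 bases in replicate 1 and 2348 bases in replicate 2. Its coding transcript Polr2b-201 was steady at 4.78 and 4.40 TPM. By counts per kilobase of the longest coding transcript, Polr2a exceeded Polr2b 5.31-fold and 4.95-fold, against 2.25-fold and 4.25-fold by TPM.

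Mediator held both the highest and the lowest of the 58 genes, 249-fold apart. Med15 (chr16:17651208-17732891, minus strand), a tail subunit that activators such as the sterol-responsive SREBP proteins bind, had 168 and 135 TPM. It was 1 of 3 Mediator genes in the top 10% of protein-coding genes. The other tail genes were lower. Med23, a target of growth-factor-driven activators, had 25.8 and 23.0 TPM. Med25, a target of the viral activator VP16, had 18.2 and 20.3 TPM, and Med24 had 19.7 and 13.7 TPM. Med16 was the lowest of the 5 with 7.43 and 4.76 TPM, and the tail median was 19.2 ± 0.389 TPM.

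The kinase module, which holds the cyclin-dependent kinase and can keep Mediator from the polymerase, had a median of 28.0 ± 1.98 TPM over its 4 genes. Med12 (chrX:101274030-101297465, plus strand), the activator of the kinase, had 67.7 and 56.7 TPM. Med13l had 33.0 and 30.02 TPM and Med13, which joins the module to the core, had 25.8 and 23.2 TPM. The paralog Med12l was below the detection threshold, 135-fold below Med12 in replicate 1 and 78.8-fold in replicate 2. The gap was 73.5-fold and 57.8-fold in the second transcript table, and 68.2-fold and 42.5-fold on coding transcripts alone. The annotation has other genes overlapping Med12l on the other strand, and no source used here says whether the libraries kept strand, so reads of Med12l and of its neighbours may be mixed. The kinase partners, which are no members, were detected in 3 of 3 cases: Cdk8 had 31.2 and 33.8 TPM, cyclin C (Ccnc) had 9.75 and 9.20 TPM, and Cdk19 had 3.94 and 4.49 TPM.

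Head genes were uneven, with a median of 11.3 ± 0.580 TPM over 7. Med20 had 30.9 and 25.5 TPM and Med8 had 27.4 and 26.2 TPM. Med6 had 9.58 and 14.5 TPM, and Med17, at the centre of the head, had 12.2 and 10.4 TPM. Med22, Med11 and Med18 lay between 3.15 and 5.41 TPM. Med18, which pairs with Med20 in the head, had 3.15 and 3.27 TPM, and Med20 was 8.78-fold higher by the mean over all transcripts. On coding transcripts alone Med20 had 3 and 3 TPM, against 3.14 and 3.27 TPM for Med18.

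Middle genes were mostly low, with a median of 4.37 ± 0.156 TPM over 9. Med1, the subunit that nuclear receptors bind, stood out with 21.8 and 17.3 TPM, and Med4 had 8.44 and 8.75 TPM. Med21, Med7 and Med26, the last of which brings elongation factors to Pol II, lay between 4.13 and 5.70 TPM. Med19, Med10, Med31 and Med9 lay between 1.39 and 4.38 TPM, and all 4 were higher in replicate 2 than in replicate 1. Med14, the scaffold that links head, middle and tail, had 13.0 and 13.5 TPM. Of the genes placed in either head or tail, Med27 had 8.26 and 6.47 TPM, Med28 had 7.18 and 4.73 TPM, Med29 had 1.67 and 1.68 TPM, and Med30 was not detected.

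In Integrator all 15 genes were detected, over a 26.0-fold range by the mean, beside 32.1-fold for Pol II and 249-fold for Mediator. The Pol II range rests on Polr2h, with 5 and 11 counts, so the order of Integrator and Pol II is not read. Ints6 and Ints6l, alternative subunits of the phosphatase module, were the highest by TPM over all transcripts. Ints6l (chrX:56454857-56507843, plus strand) had 67.9 and 68.6 TPM. Ints6 (chr14:62676330-62761169, minus strand) had 63.9 and 49.8 TPM. On coding transcripts alone Ints6, with 9.49 and 9.26 TPM, was below Ints8, with 15.6 and 13.8 TPM. Over all transcripts Ints8, which binds the phosphatase, had 25.3 and 25.1 TPM, but Ints5 of the same module was the lowest Integrator gene with 2.55 and 2.70 TPM. The backbone genes followed: Ints1 had 30.5 and 26.2 TPM, Ints7 had 27.2 and 24.4 TPM, and Ints2 had 17.0 and 16.1 TPM.

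The cleavage module was lower, with a median of 8.67 ± 0.629 TPM. Ints11, the endonuclease, had 7.75 and 8.05 TPM. Ints9, its partner without enzyme activity, had 9.11 and 8.22 TPM, and Ints4, which holds the pair together, had 11.5 and 11.6 TPM. These 3 genes were within 1.46-fold of each other by the mean. Of the auxiliary genes, Ints13 had 17.9 and 19.7 TPM, Ints10 had 17.7 and 11.9 TPM and Ints14 had 5.49 and 5.42 TPM. Ints3, which also belongs to the single-stranded DNA-binding SOSS complex, had 17.0 and 17.2 TPM, and Ints12, which carries a zinc finger of the PHD type, had 4.03 and 5 TPM.

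The partners of Integrator were detected in 7 of 7 cases, with a median of 19.0 ± 0.608 TPM. Nabp1 of the SOSS complex reached 102 and 106 TPM, above any Integrator gene, while its paralog Nabp2 had 4.37 and 4.24 TPM. The phosphatase subunits Ppp2ca and Ppp2r1a also serve other complexes. Ppp2ca had 21.9 and 24.3 TPM, and Ppp2r1a had 20.8 and 21.4 TPM. Of the wider transcription machinery, 18 of 18 general transcription factor genes reached detection (median 10.6 ± 1.63 TPM). Among these, Gtf2a2 was highest with 41.0 and 40.9 TPM and Gtf2e1 lowest with 3.95 and 3.22 TPM. The 18 of 18 elongation and C-terminal domain factors had a median of 17.9 ± 2.47 TPM. Cdk12, a kinase of that domain, led them with 59.8 and 60.7 TPM, and Supt4a was last with 2.97 and 1.65 TPM.

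Genes whose symbols name the other polymerases, Polr1 or Polr3 followed by letters, were at levels of the same order. These lists go by symbol and do not set apart subunits that polymerases share. Of 5 Polr1 genes 4 were detected (median over the 5, 7.71 ± 0.509 TPM). Polr1d had the most, 9.20 and 12.6 TPM, and Polr1e the least, 0.78 and 1.54 TPM. All 10 Polr3 genes reached detection (median 11.2 ± 0.725 TPM). Polr3gl had 28.2 and 40.7 TPM, and its paralog Polr3g had 1.32 and 1.77 TPM.

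The paralog pairs differed in how firmly their order could be read. Med13l exceeded Med13 1.28-fold and 1.30-fold by TPM in the gene table, but by counts per kilobase of the longest coding transcript the ratio was 0.843 and 0.829. It was 0.645 and 0.632 by TPM on coding transcripts alone, and 1.10 and 0.974 by TPM of the second transcript table. Ints6l exceeded Ints6 1.06-fold and 1.38-fold by TPM, 4.76-fold and 5.50-fold by counts per kilobase, and 4.66-fold and 4.35-fold on coding transcripts alone. Ints6l was below Ints6, at 0.550 and 0.669, by TPM of the second transcript table. Counts per kilobase divide all Ints6l counts by the 3766 bases of a coding transcript. Of those counts 57.5% and 67.1% lay on Ints6l-204, a processed transcript of 7170 bases. Med12l was below Med12 on each of these scales.

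Among these genes the longer ones tended to stand at higher levels. Across the 58 genes, mean TPM and the span of the gene in the annotation had a Spearman correlation of 0.575, and across the 10284 detected protein-coding genes of 0.252. Both are descriptions across genes of the same libraries, and genes are not independent replicates. The 21 genes under 10 kb had a median of 4.35 ± 0.863 TPM, beside 6.68 ± 0.0141 TPM for 2421 detected genes of that span. The 18 genes of 10 to 30 kb had 11.6 ± 0.247 TPM, beside 10.2 ± 0.325 TPM for 3547, and the 19 genes over 30 kb had 17.1 ± 1.96 TPM, beside 15.5 ± 0.693 TPM for 4316.

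Span and complex went together. Of the 13 Pol II genes 9 spanned less than 10 kb, against 11 of the 30 Mediator genes and 1 of the 15 Integrator genes. Within a complex the correlation was 0.555 for Pol II, 0.403 for Mediator and 0.511 for Integrator. It was 0.390, 0.420 and 0.668 in the same order by counts per kilobase, and 0.462, 0.445 and 0.321 on coding transcripts. Over all 58 genes it was 0.568 by TPM of the second transcript table, 0.586 by counts per kilobase of the longest coding transcript and 0.505 by TPM on protein-coding transcripts alone. Med12l, at 312.858 kb the longest of the 58, was also the lowest, and Med8 was high for its 6.446 kb.

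**Figure D2:**
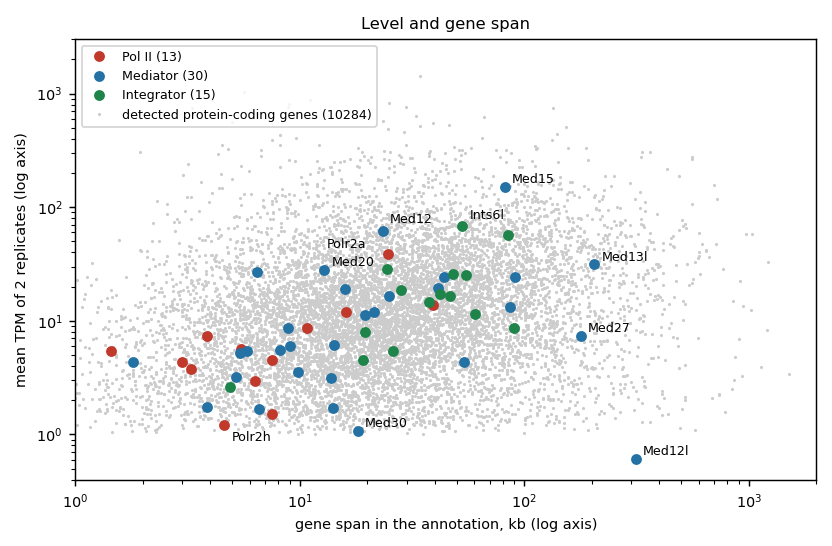
Mean TPM of the 2 replicates against gene span in kb (both log axes) for the 58 genes, in colour by complex, over the 10284 detected protein-coding genes in grey, of which those under 1 kb lie off the plot. The 9 Pol II genes under 10 kb lie at the lower left, and Med12l, the longest, lies at the bottom.

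A large part of the RNA of these genes was assigned to transcripts that keep an intron. An annotated retained-intron transcript exists for 36 of the 58 genes, against 41.4% of protein-coding genes and 63.1% of detected ones. In the 27 of these whose counts reached 100 in both replicates, such transcripts took a median of 51.0 ± 5.52% of the TPM of a gene, beside 49.0 ± 0.566% for 5042 protein-coding genes. A mean share of 50% or more was found for 15 of the 27, or 55.6%, against 48.1% of those 5042 genes, and with 27 genes no difference was read from this. By complex these were 1 of 2 Pol II genes, 6 of 13 Mediator genes and 8 of 12 Integrator genes.

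Single genes stood far apart around that median, from 8.27 ± 1.43% in Med13 to 89.3 ± 1.46% in Med20. By TPM of the second transcript table the share of Med13 was 26.2% and 36.0%, above the 20.6% and 21.8% of Med14. Med20-203, whose intron of 3822 bases is shown above, took 603 and 869 of the 780.4 and 1106 expected counts of Med20. Its coding transcript Med20-201 had 56.4 and 84.2 counts. Most of the TPM of Med20 was thus assigned to transcripts annotated with a kept intron, and its coding transcripts had 3 TPM in each replicate. Med24 followed with a share of 86.5 ± 1.34%, Med4 with 78.1 ± 3.22% and Med15 with 71.9 ± 1.03%.

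Med15, the gene with the highest level, had 1224 and 1421 counts on the retained-intron transcript Med15-209 and 650.2 and 872 counts on Med15-215. Of its coding transcripts, Med15-201 of 3410 bases had 728 and 927 counts, and Med15-213 of 3404 bases had 0 in both replicates. In the second transcript table Med15-201 had 188 and 293 counts, and Med15-213 had 766 and 873. Counting coding transcripts of the first transcript table alone, Med15 had 31.7 and 25.5 TPM, Med12 had 34.1 and 30.6 TPM and Ints6l had 44.2 and 40.3 TPM. On that scale Ints6l was above Med15 in both replicates, but on coding transcripts of the second transcript table Med15 was above Ints6l in both. By all transcripts Med15 was above Ints6l in both replicates. Med14 and Med13 were the opposite case, with shares of 17.5 ± 0.295% and 8.27 ± 1.43%, and nearly all of Med13 lay on Med13-201, 2496 and 3384 of 2504 and 3392 counts.

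Among Integrator genes the share was highest in Ints9, 70.3 ± 0.777%, and Ints4, 68.8 ± 2.83%, both of the cleavage module, and lowest in Ints11 of the same module, 24.5 ± 5.42%. Ints3, Ints6, Ints1 and Ints7 lay between 59.3% and 63.4%. Ints12-202, shown above, had 115 and 187 of 168 and 286 counts of Ints12. In Pol II only Polr2b and Polr2c had enough counts. Polr2c had 39.9 ± 1.94%, and Polr2b had 76.0% in replicate 1 and 43.2% in replicate 2, the widest gap of the 27.

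Few reads lay behind that gap. Polr2b-203, a retained-intron transcript of 261 bases, had 6.03 counts in replicate 1 and 0.65 in replicate 2, and its TPM was 10.5 and 0.81. By expected counts the share of Polr2b was 11.7% and 5.61%. Below the count minimum, Polr2e had a mean of 88.8% on 87 and 138 counts, of which Polr2e-203, shown above, took 45.7 and 59.9.

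**Figure D3:**
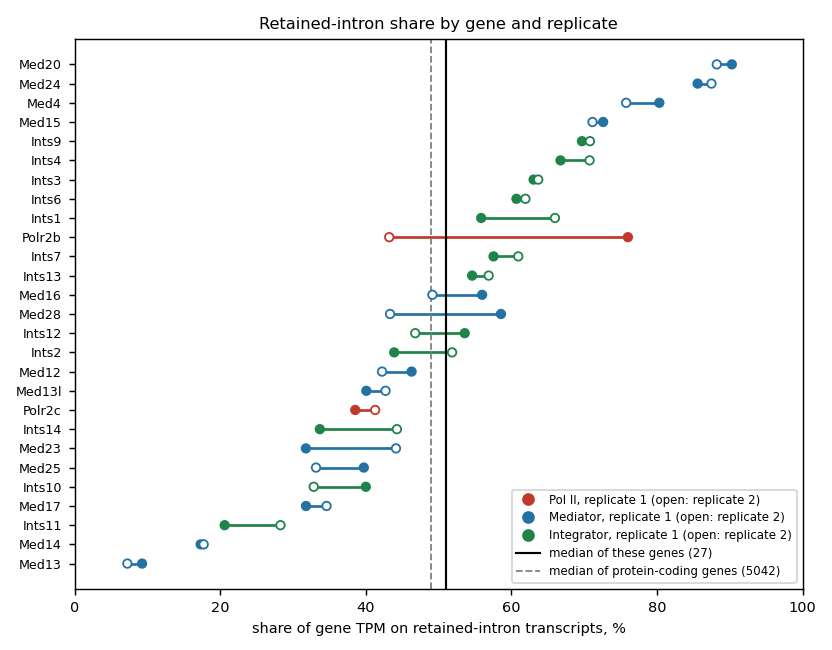
Share of each gene's TPM on retained-intron transcripts, in %, for the 27 genes that have such a transcript in the annotation and at least 100 expected counts per replicate. Filled points are replicate 1 and open points replicate 2. The solid line is their median, 51.0%, and the dashed line that of 5042 protein-coding genes, 49.0%. Med20 is highest at 89.3% and Med13 lowest at 8.27%.

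By expected counts rather than TPM, coding transcripts took 64.3 ± 0.771% of the reads of the 58 genes, beside 67.8 ± 0.0584% over all protein-coding genes. Retained-intron transcripts took 25.6 ± 0.660%, beside 25.1 ± 0.0954%. The complexes differed: coding transcripts took 89.6 ± 0.0237% of Pol II counts, 68.0 ± 1.01% of Mediator counts and 52.4 ± 2.90% of Integrator counts. In Integrator another class, processed transcripts with no coding frame, took 21.9 ± 3.81%, beside 3.69 ± 0.0391% over all protein-coding genes. Most of this was Ints6l-204, a processed transcript of 7170 bases with 1602 and 3042 of the 2788 and 4536 counts of Ints6l. Most Pol II counts were those of Polr2a, which has no annotated retained-intron transcript and took 1890 and 2270 counts.

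The transcript with the highest TPM was the same in both replicates for 23 of 33 genes with several transcripts and at least 100 counts in each replicate, against 78% of such protein-coding genes. It was not a coding transcript, in both replicates, for 11 of 33, against 37.3%, and it was a retained-intron transcript for 10 of 33, against 29.7%. Only 9 of 33 had the same leading transcript in both replicates and in both transcript tables, against 39.1%. Med12 shows why near-identical transcripts are not read singly here. Med12-201, of 6809 bases, had 600.5 counts in replicate 1 and 0.01 in replicate 2, while Med12-203, of 6816 bases, had 984 and 2353.

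In scaled counts, none of the genes differed by as much as 2-fold between the replicates, while in TPM Polr2b did, with 7.74 TPM in replicate 2 and 19.9 TPM in replicate 1. Of the 46 genes with a mean of at least 50 expected counts 0 reached 2-fold in scaled counts, against 0.22% of 9109 protein-coding genes, and the median log2 ratio of replicate 2 over replicate 1 was -0.02, beside 0.02. The other 12 genes had fewer counts, 10 of them at most 25 in replicate 1. With the exact binomial 95% interval of each ratio, which covers counting error only, 12 of 46 genes differed, against 29.8% of protein-coding genes. Of the 46 genes 8, or 17.4%, were lower in replicate 2, against 13.4% of protein-coding genes, and 4, or 8.70%, were higher, against 16.4%.

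The largest of these differences were in genes of low counts. Med19 had 51.6 and 123 counts, a log2 ratio of 0.75 with an interval of 0.26 to 1.24, and Med16 had 141 and 123 counts, a log2 ratio of -0.70 with an interval of -1.06 to -0.34. Among genes of high counts the differences were smaller but beyond counting. Ints1 had a log2 ratio of -0.38, Polr2a of -0.24, Med15 of -0.20 and Ints6l of 0.20. RNA input differed between the same libraries, and its part in these differences was not tested.

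**Figure D4:**
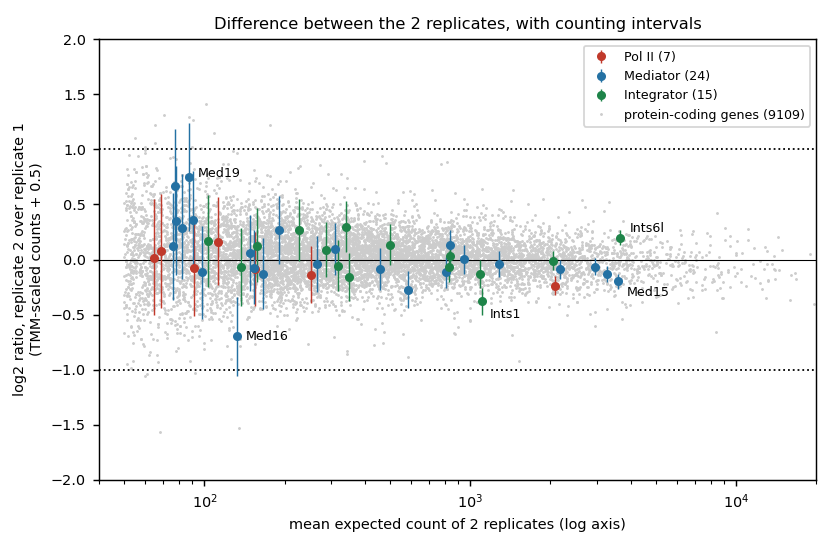
Log2 ratio of replicate 2 over replicate 1 (TMM-scaled expected counts plus 0.5) against mean expected count (log axis), for 46 genes in colour with exact binomial 95% intervals, over 9109 protein-coding genes in grey, a few of which lie beyond the axes. Dotted lines mark 2-fold. None of the coloured points crosses them, and Med19 at 0.75 and Med16 at -0.70 lie nearest.

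The deposited second transcript table was made from the same libraries by another route. It held 19200416 and 24693077 counts in replicates 1 and 2, against 10970767 and 14207280 in the gene table. By TPM it put most of the genes at similar levels, with a shift between the replicates. Genes with a mean of at least 1 TPM in either table were compared. Genes that entered by the second table alone raise the share that is higher there, while 55 of the 58 members were detected in the gene table. Summed per gene, the TPM of the second table was at least 2-fold above the gene table in both replicates for 3 of 57 genes, against 21.6% of 12857 protein-coding genes. It was at least 2-fold below in 0 of 57, against 0.163%. Counting both directions this was 3 of 57, against 21.8%, and it was 12 of 57 without replicate 1, against 36.6%, and 4 of 57 without replicate 2, against 23.9%. The 3 were Polr2g with 13.0 and 22.7 TPM in the second table against 5.03 and 6.33 TPM in the gene table, Med27 with 17.4 and 23.4 against 8.26 and 6.47 TPM, and Med30 with 1.99 and 4.02 against 0.88 and 1.27 TPM. Med30 is above 1 TPM in both replicates by the second table and not by the gene table, and so is Polr2h, with 1.24 and 2.82 TPM in the second table. Med9, with 0.757 and 1.67 TPM in the second table, and Med10 are above it in both replicates by the gene table alone. Each table taken singly thus passes 55 of the 58 genes, but not the same 55. Med10 was farthest the other way, with 0.704 and 2.43 TPM in the second table against 2.37 and 3.88 TPM in the gene table.

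**Figure D5:**
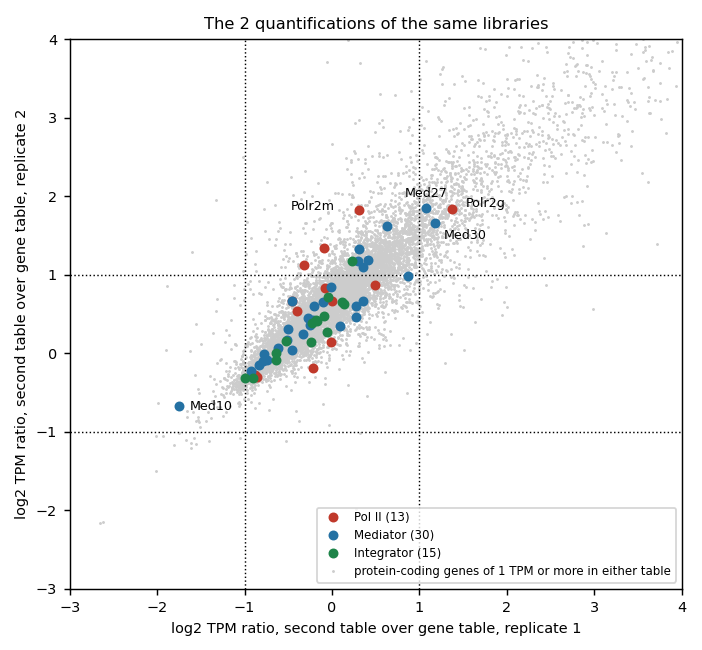
Log2 ratio of the TPM of the second transcript table over that of the gene table in replicate 1 (x axis) and replicate 2 (y axis), for the 58 genes in colour over protein-coding genes of at least 1 TPM in either table in grey, some of which lie beyond the axes. Dotted lines mark 2-fold. Polr2g, Med27 and Med30 lie above 2-fold on both axes.

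In the genome the genes lay on many chromosomes, with 9 of the 58 on chromosome 11 and 3 on the X chromosome (Med12, Med14 and Ints6l). The shares of all protein-coding genes on these chromosomes were not counted. Ints2 and Med13 are neighbours on chromosome 11, on the same strand and 9.457 kb apart, with 16.6 and 24.5 TPM by the mean. The annotation has another gene overlapping 36 of the 58, on the other strand for 28 of them. The share of all protein-coding genes with such an overlap was not counted. For members with an overlap, reads of the member and of its neighbour cannot be fully told apart, since the strand setting of the libraries is unknown here.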

How the data were processed

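RNA of the chromatin fraction was measured by ribosomal RNA-depleted sequencing in 2 libraries of 1 group, with fragments of 250 to 400 bases per the labels. The authors deposited, per library, a gene table and 2 transcript tables on GENCODE M21 and mm10, per the notes deposited with them. The deposited expected counts (estimated counts) are reads with those that match several transcripts shared out. In the deposited TPM values each estimated count is divided by an effective length, and every table is brought to the same total. The layouts are those of RSEM and, for the second transcript table, kallisto, and no version is stated in the sources used here. Entries without a gene, 0.338% and 0.27% of counts, were left out.

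The members and lists were chosen with earlier results of these data known. All 58 members were found by identifier, and every member could be named, with the highest and lowest of each partner list. Replicate ratios used TMM factors of edgeR 4.0.16 from rounded expected counts, with 0.5 added and a mean of at least 50 counts, and DESeq2 1.42.0 size factors as an alternative, in R 4.3.3. Other values were computed with Python 3.11.15, pandas 2.3.3 and scipy 1.17.1. The ratio and share functions were tested on simulated data. Where nothing was counted, up to 3 counts (0.273 and 0.211 RPM) remain possible. Intervals and this floor cover counting error only, since reads are not independent molecules. With 1 group no test between conditions was made.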

Additional observations from a re-analysis of the deposited data

How the results depend on the processing

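Of 61 values recomputed under 19 settings for 9 results, 37 stayed within the replicate spread or within 1.5 times the count reported, and 24 moved. Levels rescaled, per kilobase or on coding transcripts alone are on other scales, so their raw size was bound to differ. Medians with 1 replicate left out were judged against the spread of the same 2 replicates. The tally is therefore no measure of robustness. No paired analysis was possible because there is 1 group. The median level of the 58 genes was 11.95 TPM in the second transcript table, 32.4 when rescaled within protein-coding genes, 38.2 by counts per kilobase of the longest coding transcript with a fixed total, and 4.14 TPM on protein-coding transcripts alone, beside medians of the detected protein-coding genes of 14.3, 43.5, 45.7 and 5.34 on the same scales. The last 2 scales were chosen after seeing the data. On these scales the median was 21.7, 21.3 and 3.78 for Pol II after rescaling, per kilobase and on coding transcripts. It was 11.7, 26.4, 39.5 and 3.96 for Mediator and 18.5, 65.2, 58.5 and 5.47 for Integrator, in the order above. Integrator was the highest of the complexes and Pol II the lowest on each. The Pol II median was 6.49 TPM by posterior mean TPM, and the Integrator median 15.7 TPM without Ints6l. With either replicate left out the medians ranged from 7.77 to 8.35 TPM over all genes, 5.38 to 6.33 TPM for Pol II, 5.95 to 7.85 TPM for Mediator and 16.1 to 17.0 TPM for Integrator, and the genes detected from 55 to 57. At 10 TPM 24 genes passed, beside 23.6% of protein-coding genes, and at 0.5 TPM all 58 did, beside 50.4%. At 1 TPM after rescaling within protein-coding genes all 58 passed too, beside 53.3%. No member reached 2-fold between replicates under any of 6 other settings, beside 0.132% (5 added) to 9.21% (no minimum) of protein-coding genes. Scaling by library size alone moved the median log2 ratio of the members to 0.10 and that of all protein-coding genes to 0.15. The median retained-intron share was 27.7% by expected counts, beside 31.2% for protein-coding genes, and ranged from 46.8% to 54.6% with either replicate left out. The genes 2-fold apart between quantifications numbered 5 by counts scaled to equal totals (20.7% of protein-coding genes), namely Polr2f, Polr2g, Polr2h, Med10 and Med16, so that of the 3 by TPM only Polr2g was shared, and from 4 to 12 with either replicate left out (23.9% and 36.6%). The causes were not tested. Depth limits the genes with few counts most, such as Polr2h with 5 and 11.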
